A study of Mus musculus with 9 samples.

Results

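The ErbB receptors *Egfr*, *Erbb2*, *Erbb3* and *Erbb4* and the EGF-family ligands *Egf*, *Tgfa*, *Hbegf*, *Btc*, *Areg* and *Nrg1* were followed in RNA from whole mouse kidneys at E15.5 (embryonic day). These 10 genes were chosen by symbol out of the 24138 loci of the deposited table, with their levels in these libraries already known, so that their levels and differences are given as a description and were not tested. Each symbol matched 1 locus. The study asked what the loss of netrin 1, a secreted guidance cue made by the stromal progenitors of the kidney, does to the developing organ. It sequenced 3 kidneys of each of 3 genotypes from crosses of Ntn1fl/fl with Foxd1GC/+;Ntn1fl/+ mice. MUT kidneys were Foxd1GC/+;Ntn1fl/fl, HET kidneys were Foxd1GC/+;Ntn1fl/+ and WT kidneys were Ntn1fl/fl. GC stands for a GFP-Cre inserted at *Foxd1*, a gene of stromal progenitors, so that Cre acts in these cells and their descendants. All kidneys carried at least 1 floxed *Ntn1* allele, WT kidneys carried no Cre, and HET and MUT kidneys had both lost 1 *Foxd1* allele to the insertion. HET and MUT thus differ in the number of floxed *Ntn1* alleles, while HET and WT also differ in Cre and in *Foxd1* dose.

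ErbB receptors are receptor tyrosine kinases that pair with one another when a ligand binds. Egfr binds Egf, Tgfa and amphiregulin (the product of *Areg*), Erbb3 binds neuregulins, and Erbb4 binds neuregulins as well as betacellulin (*Btc*) and heparin-binding EGF-like growth factor (*Hbegf*), both of which also bind Egfr. Erbb2 has no known ligand of its own and serves as a partner of the others, and Erbb3 has little kinase activity and passes the signal on through its partner, mainly to the PI3K pathway. Most ligands are made as membrane proteins from which metalloproteases of the Adam family release the active part, and the active pairs signal through Ras and ERK. In the kidney the family is known for acting on epithelia of the ureteric bud and the tubules.

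The ligands share 1 protein fold, the EGF module, held by 6 cysteines. The coding stretch of this module is shown for 5 ligands because it is the part of these genes that binds the receptor, and because it decides how the *Nrg1* locus can be read. Each stretch runs from the first to the last cysteine codon, 5′ to 3′ on the coding strand, with the 6 cysteine codons in capitals, and each was joined from 2 exons of GENCODE mouse release M21 (mm10).
*Tgfa*, chr6:86263200-86269960 (+), exons 3 and 4: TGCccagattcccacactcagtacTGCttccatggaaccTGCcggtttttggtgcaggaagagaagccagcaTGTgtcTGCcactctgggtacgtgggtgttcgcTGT
*Btc*, chr5:91362421-91366197 (-), exons 3 and 4: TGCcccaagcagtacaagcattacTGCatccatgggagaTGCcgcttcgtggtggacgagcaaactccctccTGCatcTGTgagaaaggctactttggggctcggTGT
*Areg*, chr5:91143614-91144364 (+), exons 3 and 4: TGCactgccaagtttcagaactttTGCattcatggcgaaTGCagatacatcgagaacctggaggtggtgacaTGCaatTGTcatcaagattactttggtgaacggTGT
*Egf*, chr3:129686322-129690850 (-), exons 20 and 21: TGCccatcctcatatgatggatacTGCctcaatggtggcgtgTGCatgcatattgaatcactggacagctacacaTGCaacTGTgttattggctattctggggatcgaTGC
*Nrg1*, chr8:31837698-31849398 (-), exons 2 and 3: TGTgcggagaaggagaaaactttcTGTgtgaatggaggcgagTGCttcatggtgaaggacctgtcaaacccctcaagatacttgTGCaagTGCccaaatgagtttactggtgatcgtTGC
The modules of *Tgfa*, *Btc* and *Areg* are 36 residues long, that of *Egf* 37 and that of *Nrg1* 40. *Tgfa* and *Btc* share 19 of 36 residues (52.8%), the 6 cysteines included, and each shares 14 of 36 (38.9%) with *Areg*.

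The receptor genes lie at chr11:16752202-16913907 (*Egfr*), chr11:98412483-98438988 (*Erbb2*), chr10:128569367-128589501 (*Erbb3*) and chr1:68039965-69108059 (*Erbb4*) in the deposited table. The ligand genes lie at chr3:129677574-129763882 (*Egf*), chr6:86195250-86275449 (*Tgfa*), chr18:36504926-36515805 (*Hbegf*), chr5:91357260-91402994 (*Btc*), chr5:91139614-91148432 (*Areg*) and chr8:31818027-31918203 (*Nrg1*). *Btc* and *Areg* lie with *Epgn* and *Ereg*, further ligands of the family, within 375.5 kb of chromosome 5. For 9 of the 10 genes the locus covers 91.0% or more of the GENCODE gene. The *Nrg1* locus covers 9.37% of it, since the gene extends to position 32884029. It holds the start of 3 of 18 annotated *Nrg1* transcripts, and it holds the EGF module of all 12 coding transcripts in which one was found. The *Nrg1* values below are those of this locus, and transcripts that start further upstream may be counted in part.

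Levels are given as FPKM, fragments per length of transcript scaled to the mapped fragments of the library, which allows genes of different length to be set side by side. *Erbb2* had the highest level of the 10 genes in all 9 libraries, with a mean of 21.4 FPKM, at or above 81.7% of all loci. *Erbb3* followed with a mean of 5.57 FPKM over the 9 libraries. The ranges of *Erbb2* (14.9 to 26.4) and *Erbb3* (3.98 to 8.49) did not meet, and *Erbb2* was 3.05 to 4.78 times *Erbb3* within a library.

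Below *Erbb2* came 4 genes of similar level, *Erbb3* and the ligands *Hbegf* (mean 5.20 FPKM), *Tgfa* (4.80) and *Btc* (4.32). Their order was not the same from library to library. *Erbb3* exceeded *Hbegf* in 5 of 9 libraries, *Hbegf* exceeded *Tgfa* in 5 of 9, and *Tgfa* exceeded *Btc* in 7 of 9. *Egfr* (mean 3.07 FPKM) was below *Btc* in 7 of 9 libraries and above *Erbb4* (1.61) in 8 of 9. *Egf* (0.506) was below *Erbb4* in 9 of 9 libraries, although the ranges overlapped, and exceeded *Nrg1* (0.404) in 6 of 9. *Areg* was lowest in all 9 libraries, between 0.0134 and 0.0767 FPKM. The number of reads behind these values is not known, and for *Areg* the values are too close to 0 for differences between libraries to be read.

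**Figure D1:**
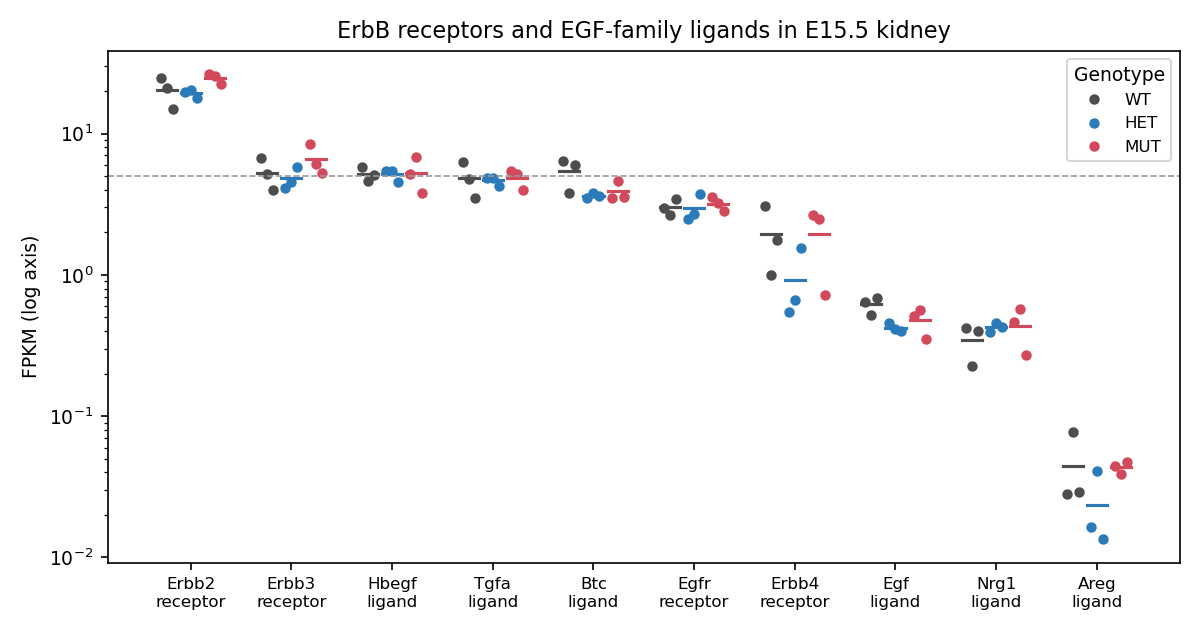
FPKM (log axis) of the 10 genes in each of the 9 libraries, ordered by mean level and coloured by genotype, with a short bar at each genotype mean and a dashed line at the minimum of 5 FPKM used in the fits. *Erbb2* lies between 14.9 and 26.4 FPKM, above all others, and *Areg* between 0.0134 and 0.0767 FPKM, below all others.

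In sum, the receptors reached 24.1 to 41.1 FPKM per library and the ligands 12.01 to 19.6 FPKM. *Erbb2* made up 61.5% to 73.4% of the receptor FPKM. *Tgfa*, *Hbegf* and *Btc* together made up 92.9% to 94.4% of the ligand FPKM. Each of these 3 ligands was above the *Nrg1* locus in all 9 libraries, although that locus is incomplete.

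*Ntn1*, the targeted gene, was at 26.1, 28.9 and 17.8 FPKM in WT libraries 1, 2 and 3, at 12.3, 12.02 and 16.5 in HET and at 10.8, 16.5 and 11.0 in MUT. Every WT library was above every HET and MUT library, while HET and MUT overlapped, so the gene-level value sets WT apart and does not separate the other 2 genotypes. Whether the deleted exon was absent could not be read from these values. Markers of nephron progenitors (5 of 5 genes listed, 177 to 283 FPKM summed) and of ureteric and collecting duct epithelium (10 of 10, 323 to 422) were present in all libraries, as the label of whole kidney says. HET library 2 stood apart, with 689 FPKM summed over 6 liver genes against 30.7 to 55.4 elsewhere and 19.2 over 5 neuronal genes against 3.57 to 7.99. The members in HET-2 all lay within the range of the other 8 libraries. Relative depth, read from the step size of low values, ran from 0.577 (WT-2) and 0.613 (MUT-3) to 1.28 (MUT-1), with WT-1 set at 1. In whole kidneys, fewer cells of a type and less RNA per cell cannot be told apart.

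The comparison of MUT with HET kidneys, which both carry Cre, asks what the second floxed *Ntn1* allele changes. Across all loci the limma fit called 0 of 10081 (0%), with 303 loci higher and 191 lower at an unadjusted p under 0.05 and a smallest adjusted p of 0.237. Of the 10 genes, *Erbb2*, *Erbb3* and *Hbegf* passed the minimum of 5 FPKM, and the other 7 were below it in both genotypes. *Erbb3* passed through its MUT mean only (6.60 FPKM, against 4.83 in HET). A simpler description, every MUT library above every HET library, held for 1 of the 10 genes (*Erbb2*) and for 4.36% of the 16867 loci above 0 in all 6 libraries. Every MUT library was below every HET library for 0 of the 10 genes and for 5.58% of loci. As the genes were chosen with these values known, nothing is read from their count.

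*Erbb2*, the partner receptor, was at 26.4, 25.4 and 22.5 FPKM in MUT libraries 1, 2 and 3 and at 19.8, 20.2 and 17.8 in HET. The lowest MUT library lay above the highest HET library. The means were 24.8±2.03 and 19.3±1.31 FPKM (mean±s.d., n=3), a ratio of 1.29, and the ratio within same-numbered libraries was 1.33, 1.26 and 1.27. On the log2(FPKM + 1) scale the difference was 0.35 with a standard error of 0.12. It was 0.32 to 0.36 with each replicate number left out and 0.38 without HET-2, and it stayed at 0.35 after a correction for the GC content of the transcripts.

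*Erbb3*, the neuregulin receptor, was at 8.49, 6.07 and 5.25 FPKM in MUT and at 4.15, 4.52 and 5.82 in HET. MUT-1 was the highest of the 9 libraries and MUT-3 lay below HET-3, so the genotypes overlapped. The ratio of the means was 1.37, and the log2 difference of 0.37 had a standard error of 0.20. Replicate 1 carried much of it, since the difference was 0.12 without that number and 0.62 without replicate 3.

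*Erbb4*, the second neuregulin receptor, varied more than any other receptor, with 5.68-fold between its highest and lowest library. It was at 2.64, 2.49 and 0.724 FPKM in MUT and at 0.543, 0.659 and 1.55 in HET. In libraries 1 and 2 the MUT level was 4.87 and 3.78 times the HET level, and in library 3 it was 0.466 times. The log2 difference of 0.58 compares with a pooled s.d. between replicates of 0.51, and was 0.25 without replicate 1, 0.34 without replicate 2 and 1.16 without replicate 3. *Egfr* was at 3.55, 3.21 and 2.83 FPKM in MUT and at 2.50, 2.70 and 3.72 in HET, again with library 3 in the opposite direction, and its log2 difference of 0.09 was below its pooled s.d. of 0.18 and became -0.06 without replicate 1.

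Podocyte markers moved with *Erbb4* in part. *Podxl*, *Nphs1* and *Synpo* were above 0 in every library. *Podxl* was at 71.0 FPKM in WT-1, 67.3 in MUT-2 and 60.2 in MUT-1, which were also the 3 libraries with the most *Erbb4*, and *Nphs1* and *Synpo* had their 3 highest values in the same libraries. By genotype *Podxl* ran from 45.3 to 71.0 FPKM in WT, from 38.95 to 52.7 in HET and from 37.1 to 67.3 in MUT. HET-3 and MUT-3 had similar *Podxl* levels (38.95 and 37.1 FPKM) and *Erbb4* levels of 1.55 and 0.724 FPKM. The part of podocyte content in the *Erbb4* values was not tested. *Sox10*, a marker of Schwann cells, another cell type that uses Erbb3, was low, at 0.114 to 0.194 FPKM in WT, 0.0809 to 0.440 in HET and 0.213 to 0.315 in MUT.

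The summed receptor FPKM was 41.1, 37.2 and 31.3 in MUT and 27.0, 28.1 and 28.9 in HET, with no overlap. *Erbb2* made up 61.5% or more of this sum in every library. It was the only receptor whose own MUT and HET libraries did not overlap. In WT the receptor sum was 37.6, 29.7 and 24.1, which overlapped both other genotypes. The ligand sum was 15.2, 17.8 and 12.01 in MUT and 14.7, 15.1 and 13.3 in HET, and the genotypes overlapped. Each receptor had a higher mean in MUT than in HET. The log2 differences of *Egfr* and of all ligands but *Areg*, which was close to 0 FPKM, were smaller than their s.d. between replicates.

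Among the ligands, *Hbegf* was at 5.16, 6.79 and 3.79 FPKM in MUT and at 5.44, 5.47 and 4.57 in HET, so the MUT libraries lay on both sides of the HET libraries. Its log2 difference was -0.0047 with a standard error of 0.18. *Tgfa* was at 5.46, 5.15 and 3.999 FPKM in MUT and at 4.83, 4.87 and 4.27 in HET, a log2 difference of 0.05 with a pooled s.d. of 0.15. *Btc* was at 3.51, 4.64 and 3.55 FPKM in MUT and at 3.51, 3.81 and 3.60 in HET, a log2 difference of 0.07 with a pooled s.d. of 0.13. The MUT and HET values of these 3 ligands were interleaved. *Egf*, at 0.512, 0.568 and 0.354 FPKM in MUT and 0.457, 0.416 and 0.397 in HET, and *Nrg1*, at 0.467, 0.569 and 0.272 in MUT and 0.397, 0.458 and 0.428 in HET, overlapped too. For both, MUT-3 was the lowest of the 6 libraries. *Areg* was at 0.0445, 0.0388 and 0.0471 FPKM in MUT and at 0.0164, 0.0407 and 0.0134 in HET.

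**Figure D2:**
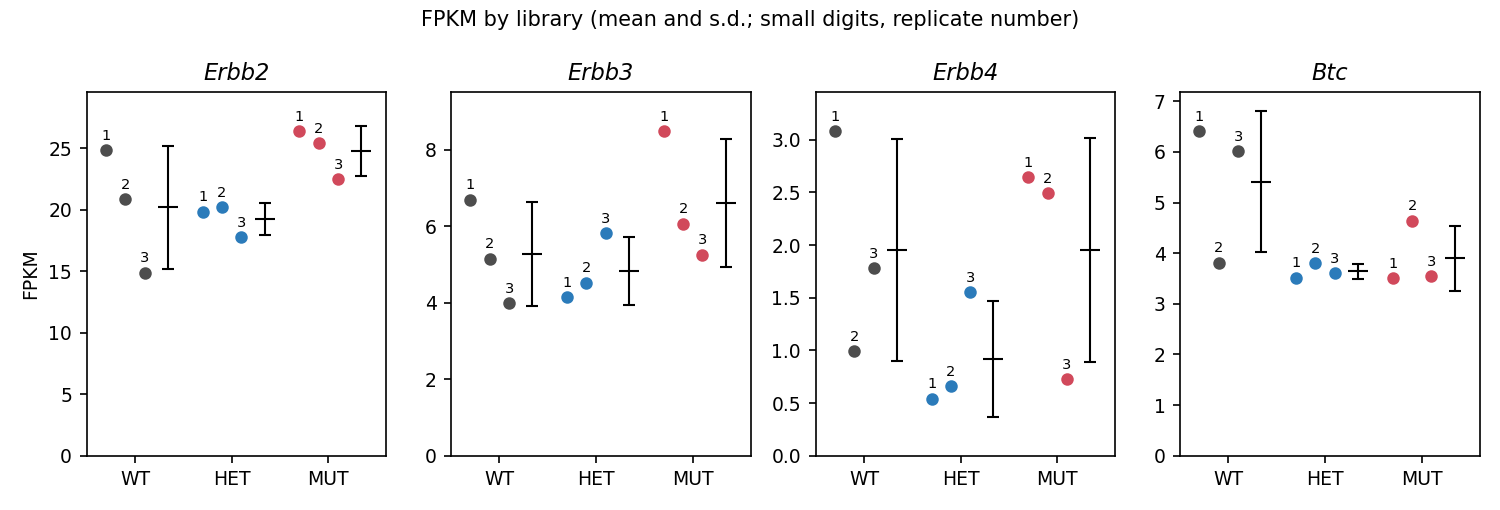
FPKM (linear axis from 0) of *Erbb2*, *Erbb3*, *Erbb4* and *Btc* in each library, with the replicate number above each point and the mean and s.d. of the 3 libraries beside them. All 3 MUT libraries exceed all 3 HET libraries for *Erbb2* (22.5 or more against 20.2 or less) and not for the other 3 genes, and *Btc* is above 6 FPKM in WT-1 and WT-3 only.

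Between MUT and WT kidneys the fit called 0 of 10096 loci (0%), with 88 higher and 113 lower at an unadjusted p under 0.05 and a smallest adjusted p of 0.949. Every MUT library was above every WT library for 0 of the 10 genes and for 2.28% of 16734 loci, and below for 0 of the 10 genes and for 2.97% of loci. *Btc* passed the minimum here beside *Erbb2*, *Erbb3* and *Hbegf*, through its WT level.

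*Erbb2* was at 24.8, 20.9 and 14.9 FPKM in the WT libraries, a mean of 20.2±5.01 (s.d., n=3). WT-1 lay above MUT-3, so the genotypes overlapped, and WT-3 was the lowest of the 9 libraries. The log2 difference of 0.31 (standard error 0.12) fell to 0.11 without WT-3 in a fit without the replicate block. *Erbb3* was at 6.69, 5.15 and 3.98 FPKM in WT, and its log2 difference of 0.28 (standard error 0.11) fell to 0.12 in the same fit. Both standard errors come from the fit that pairs same-numbered libraries and rest on that pairing. The pooled s.d. between replicates, which does not pair them, was 0.27 for *Erbb2* and 0.31 for *Erbb3*. With 1 replicate number left out from both genotypes at a time, the difference was 0.18 to 0.42 for *Erbb2* and 0.25 to 0.32 for *Erbb3*. After the correction for GC content the difference was 0.24 for *Erbb2* and 0.28 for *Erbb3*. *Erbb3* was 1.27, 1.18 and 1.32 times higher in MUT than in the same-numbered WT library. *Erbb4* was at 3.08, 0.995 and 1.78 FPKM in WT, with a mean of 1.95 FPKM in both genotypes and a log2 difference of -0.02. *Egfr* was at 2.96, 2.66 and 3.45 FPKM in WT, a log2 difference of 0.06.

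Between HET and WT kidneys the fit called 0 of 10105 loci (0%), with 96 higher and 137 lower at an unadjusted p under 0.05 and a smallest adjusted p of 0.156. Every HET library was below every WT library for 2 of the 10 genes (*Egf* and *Btc*) and for 2.09% of 16829 loci, and above for 0 of the 10 genes and for 3.35% of loci. Here too the count of members is a description. *Btc* and *Erbb3* passed the minimum in this comparison through their WT means only (5.42 and 5.27 FPKM, against 3.64 and 4.83 in HET).

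*Btc*, betacellulin, was at 6.41, 3.81 and 6.02 FPKM in WT. WT-2 was level with HET-2 (both 3.81 to 3 digits), so the groups barely separated. The mean was 5.42±1.40 FPKM in WT and 3.64±0.150 in HET (s.d., n=3), a ratio of 0.672 and a log2 difference of -0.44 with a standard error of 0.20. Against WT, the MUT libraries gave -0.37 with a standard error of 0.21, which became -0.20 without replicate 1, -0.67 without replicate 2 and -0.24 without replicate 3. *Egf* was at 0.644, 0.521 and 0.689 FPKM in WT, a mean of 0.618±0.0869, against 0.423±0.0304 in HET.

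Both ligands were highest in the same libraries as the sums of the markers of the loop of Henle and distal tubule and of the proximal tubule. The 5 listed loop and distal tubule genes, among them *Umod* and the cotransporter gene *Slc12a1*, were all above 0 in every library, and *Slc12a3* was lowest, at 0.187 FPKM in MUT-3. Their sum was 87.3 FPKM in WT-1, 78.6 in MUT-2 and 69.0 in WT-3, and *Btc* and *Egf* also had their 3 highest values of each gene in WT-1, WT-3 and MUT-2. Not every gene of the list followed the sum, since *Irx1* and *Pou3f3* were lower in WT-3 (9.82 and 22.2 FPKM) than in MUT-1 (15.7 and 26.8). By genotype the sum ran from 55.6 to 87.3 FPKM in WT, from 45.2 to 61.9 in HET and from 45.6 to 78.6 in MUT. The sum of 5 proximal tubule genes was also highest in WT-3 (70.2 FPKM), MUT-2 (65.5) and WT-1 (65.1), and ran from 52.6 to 70.2 in WT, from 32.9 to 62.4 in HET and from 33.6 to 65.5 in MUT. The part of either list in the *Btc* and *Egf* values was not tested.

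The receptors overlapped between HET and WT, with log2 differences of -0.04 for *Erbb2*, -0.09 for *Erbb3*, -0.60 for *Erbb4* and -0.03 for *Egfr*. *Erbb4* was lower in HET than in the same-numbered WT library in all 3 cases, at ratios of 0.176, 0.662 and 0.874, while HET-3 exceeded WT-2. Among the ligands, *Tgfa* (6.30, 4.76 and 3.52 FPKM in WT) and *Hbegf* (5.80, 4.65 and 5.10) differed by -0.03 and -0.01 on the log2 scale. *Nrg1* was at 0.420, 0.227 and 0.399 FPKM in WT and *Areg* at 0.0281, 0.0767 and 0.0290. *Tgfa*, *Erbb2* and *Erbb3* were all highest in WT-1 and lowest in WT-3 among the WT libraries. So was *Grb2*, an adaptor gene described below (45.0, 36.7 and 29.3 FPKM), and the order was thus not particular to these members.

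**Figure D3:**
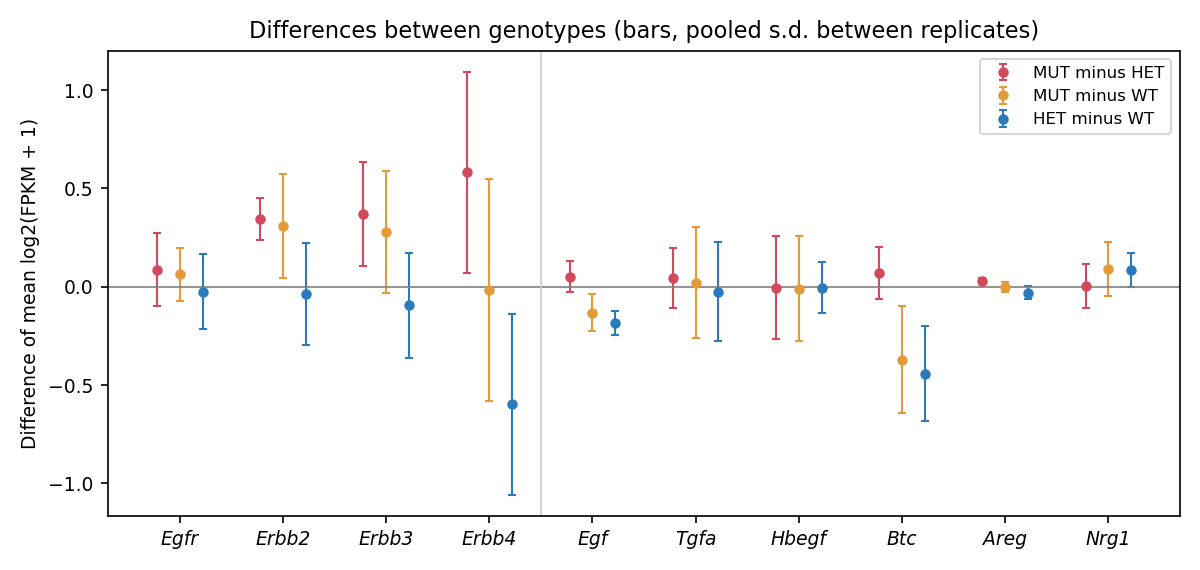
Difference of mean log2(FPKM + 1) between genotypes for each gene, receptors left of the grey line and ligands right of it, in the 3 comparisons, which share libraries. Bars are the pooled s.d. between replicates. The receptors lie at 0.09 to 0.58 in MUT minus HET, and *Btc* at -0.37 and -0.44 against WT.

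The 3 loci most like each member were sought among the 9978 loci with a mean of 5 FPKM or more, by the root mean square difference of centred log2(FPKM + 1) over the 9 libraries. For *Erbb2* they were *Tsc22d4*, *Dennd2a* and *Pak4*, at 0.0553, 0.0558 and 0.0562, where the median locus was at 0.298. For *Erbb3* they were *Peg10*, *Asap2* and *Soga1* (0.0707 to 0.0808, median locus 0.328). *Hbegf* was followed by *Fads3*, *Cxcl12* and *Galnt18* (0.0656 to 0.0761, median 0.246), and *Btc* by *Mcoln3*, *Cdkl1* and *Ppargc1a* (0.0909 to 0.131, median 0.312). *Tsc22d4* showed the shape of *Erbb2*, with 40.2, 34.7 and 25.4 FPKM in WT, 33.0, 31.8 and 29.0 in HET and 41.3, 37.4 and 35.4 in MUT.

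The other genes of the pathway were read from lists, and 0 genes of any list were called in any comparison. The fold changes that follow are MUT over HET on the log2(FPKM + 1) scale, beside a median of -0.02 over all loci tested, of which 45.9% were above 0. The remaining ligands were scarce. *Nrg2* was at 0.423 to 0.786 FPKM, *Nrg3* at 0.199 to 0.407, *Nrg4* at 0.0478 to 0.148 and *Epgn* at 0.0428 to 0.162, and *Ereg* was at most 0.0127 and listed at 0 in WT-1, WT-2 and MUT-3. None of these 5 genes reached the minimum.

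Of the sheddases and their regulators, 5 of 7 genes were tested, 3 with a value above 0 and 2 below, with a median of 0.06. The highest was *Adam10*, a metalloprotease that releases Egf and betacellulin, at 67.9, 71.9 and 54.4 FPKM in MUT and 50.4, 47.1 and 58.7 in HET. Its log2 fold change was 0.31 (standard error 0.16), and MUT-3 lay below HET-3. The lowest was *Rhbdf1*, a regulator of the sheddase Adam17, at -0.09.

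Of the adaptors, kinases and other effectors, 26 of 27 genes were tested, 18 above 0 and 8 below, with a median of 0.05. The highest was *Grb2*, the adaptor that links the receptors to Ras, at 45.1, 43.5 and 36.0 FPKM in MUT and 33.5, 35.5 and 33.0 in HET. This gave a log2 fold change of 0.28, with a standard error of 0.14. Its 3 MUT libraries lay above its 3 HET libraries. The lowest was *Map2k1*, the kinase upstream of ERK, at -0.12.

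All 16 negative regulators were tested, 12 above 0 and 4 below, with a median of 0.07, and 2 had an unadjusted p under 0.05. *Cbl*, the ubiquitin ligase that marks activated Egfr for degradation, had the largest value, 0.75 with a standard error of 0.31 (limma, adjusted p = 0.933). It was at 15.2, 11.6 and 7.21 FPKM in MUT, at 4.26, 4.29 and 11.6 in HET and at 14.8, 7.29 and 10.01 in WT. HET-1 and HET-2 were thus the 2 lowest of the 9 libraries, HET-3 was within the range of the others, and MUT and HET overlapped. The other was *Spred2*, an inhibitor of Ras signalling (0.33, standard error 0.15; limma, adjusted p = 0.933), which was named after its values were seen. The lowest was *Dusp6*, the phosphatase of ERK, at -0.21.

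Of the ERK target genes, 8 of 10 were tested, 3 above 0 and 5 below, with a median of -0.01. They ran from *Ier3* at -0.22 to *Egr1* at 0.19. The smallest adjusted p over these lists between MUT and HET was 0.933 (limma). In MUT against WT the lists of effectors and negative regulators had 18 of 26 and 13 of 16 tested genes above 0, beside 48.7% of all loci tested. In HET against WT they had 9 of 26 and 4 of 16, beside 52.4% of all loci, and these comparisons share their libraries with the first.

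**Figure D4:**
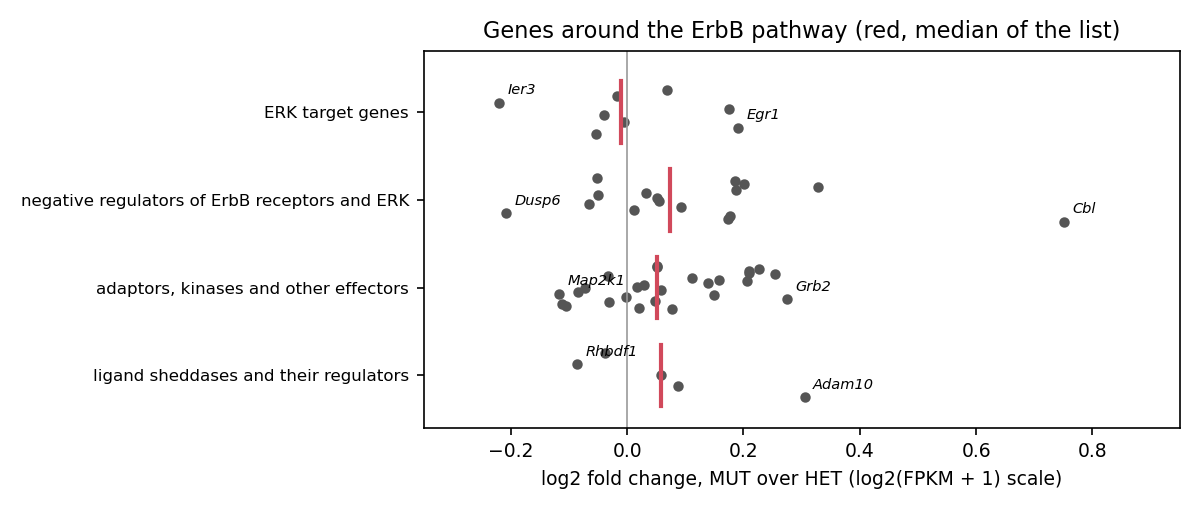
log2 fold change of MUT over HET for each tested gene of the 4 lists with genes above the minimum, with the median of each list as a red line and the highest and lowest gene named. The medians lie between -0.01 and 0.07, and *Cbl* at 0.75 stands outside the others.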

How the data were processed

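Whole E15.5 kidneys of 3 genotypes (3 libraries each, separate kidneys) were sequenced from stranded mRNA libraries. The authors aligned reads with STAR, merged transcripts with Cufflinks and computed FPKM with Cuffdiff, and the submitters' processing notes name mm10. Tool versions and annotation are not given in the sources used here. The deposited FPKM per locus were used unscaled, with sums of 453754 to 545598 per library. Read totals are unknown, so precision rests on the spread of 3 libraries.

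Loci that averaged 5 FPKM or more in 1 or both genotypes were compared on log2(FPKM + 1), which understates changes of low genes, with limma 3.58.1 in R 4.3.3 (lmFit, eBayes with trend, two-sided, Benjamini-Hochberg threshold 0.05). Each fit held 2 genotypes, with the replicate number as a block because the P values in the study's supplementary tables are those of a one-sided paired test of same-numbered HET and MUT libraries, which its methods do not name. The fits were also run on simulated data in which libraries were independent and none stood apart as HET-2 does. That run does not show how the fits behave on the libraries used here. Same-numbered libraries did not in general deviate together. Their correlations were -0.31, 0.05 and -0.13 for MUT and HET, and -0.20, -0.06 and 0.17 for HET and WT. For MUT and WT they were 0.55, -0.26 and -0.03, so MUT-1 and WT-1 were an exception. Other steps used Python 3.11.15 and pandas 2.3.3.

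The members, lists and tests were chosen with earlier results of these data known. Named genes were the 10 members, the other ligands, *Ntn1*, the highest and lowest tested gene of each pathway list, and the 3 loci nearest to each member of 5 FPKM or more in a genotype. Cell type lists were described by summed FPKM, or by single genes for podocytes and Schwann cells, of which some listed genes are not reported here. Sequences were read from GENCODE M21 transcripts (GRCm38, the assembly of mm10). Alternatives were other pseudocounts, minimums and scalings, a GC correction, all 9 libraries in 1 fit, no trend, no block, and left-out libraries.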

Additional observations from a re-analysis of the deposited data

How the results depend on the processing

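Without the replicate block the fits again called 0 loci in each comparison, with 636, 65 and 108 loci at an unadjusted p under 0.05 for MUT against HET, MUT against WT and HET against WT. Apart from MUT-1 with WT-1, the numbers do not pair the libraries by their deviations, so the block is the study's choice of test. With 1 replicate number left out, 1 residual degree of freedom remains, and calls ranged from 30 to 148 for MUT against HET, from 1 to 168 for MUT against WT and from 1 to 125 for HET against WT. The cause was not tested. Without WT-3 and without the block, an alternative chosen after seeing the data, as was leaving out HET-2, 1 locus was called between HET and WT (limma, adjusted p = 0.0432). The other alternatives called 0 loci. Of 430 member differences recomputed under alternatives, 416 moved by less than the s.d. between replicates and 14 by more, among them *Egf*, *Nrg1* and *Areg* under another pseudocount, *Erbb4* and *Egfr* without replicate 3, and *Btc* without replicate 2. Genes under about 1 FPKM are limited by depth, which is unknown.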
